A study of Mus musculus with 2 samples.

Results

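The albumin gene family was examined here through the open chromatin assigned to its 4 members in mouse liver, *Alb* (albumin), *Afp* (alpha-fetoprotein), *Afm* (afamin) and *Gc* (vitamin D-binding protein). Every distinct region of the deposited ATAC-seq table whose closest gene is one of the 4 was taken, which gave 30 of 69549 regions: 8 for *Alb*, 3 for *Afp*, 0 for *Afm* and 19 for *Gc*. ATAC-seq uses the Tn5 transposase to cut accessible DNA and tag it for sequencing, so that the reads over a stretch of DNA follow how open its chromatin is. The FF library was pooled from the livers of 4 *Mettl3* flox/flox mice and the HKO library from those of 4 *Mettl3*-HKO mice, which carry the same floxed *Mettl3* alleles together with Alb-Cre+/-, all on the C57BL/6 background, on normal chow and 8 weeks old. *Mettl3* encodes the catalytic subunit of the complex that writes N6-methyladenosine on RNA, and the comparison asks how liver chromatin differs once hepatocytes have lost it.

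Each group is a single pooled library without replicates, and each value below describes those libraries. The Alb-Cre transgene is driven by regulatory DNA of albumin, the gene studied here, and only the *Mettl3*-HKO mice carry it. How much albumin DNA the transgene holds, and of which species, is not given in the sources used here. Where its sequence matches the mouse gene, its reads cannot be told apart from those of *Alb* itself. In whole liver, fewer hepatocytes and less open chromatin per hepatocyte cannot be told apart either. Open chromatin does not measure the deletion of floxed exons, so the genotype labels were not checked here.

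Albumin, alpha-fetoprotein, afamin and vitamin D-binding protein are secreted by hepatocytes and carry lipids, hormones, metals and vitamins in plasma. Their genes arose by duplication and lie in 1 cluster, in which *Alb*, *Afp* and *Afm* stand head to tail and *Gc* lies apart on the opposite strand. *Alb* is among the most transcribed genes of the adult liver, whereas *Afp* is transcribed in fetal liver and silenced after birth, and returns in regeneration and liver cancer. The *Alb* and *Afp* promoters bind FOXA, C/EBP and NF-Y proteins, and enhancers upstream of *Alb* and between *Alb* and *Afp* drive the genes in liver. On GRCm38 the members lie on chromosome 5. The end of *Afp* is 10.04 kb from the start of *Afm*, the end of *Alb* is 14.1 kb from the start of *Afp*, and 1003 kb separate *Gc* from *Alb*.

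The promoters are the sequences on which the main contrast of these data turns, since *Alb* and *Gc* had an open region at the start of the gene and *Afp* and *Afm* had none. The 250 bases upstream of each RefSeq start are printed 5′ to 3′ on the strand of the gene, in lower case, with matches to 6 short motifs in capitals. The windows lie on GRCm38.p6 at chr5:90460620-90460869 (+ strand) for *Alb*, chr5:90490464-90490713 (+ strand) for *Afp*, chr5:90518699-90518948 (+ strand) for *Afm* and chr5:89457899-89458148 (− strand) for *Gc*.
Alb: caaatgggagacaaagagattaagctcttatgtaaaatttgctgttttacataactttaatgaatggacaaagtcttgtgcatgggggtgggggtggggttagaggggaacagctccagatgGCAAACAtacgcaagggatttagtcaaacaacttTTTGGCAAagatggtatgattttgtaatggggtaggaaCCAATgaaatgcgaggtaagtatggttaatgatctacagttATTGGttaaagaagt
Afp: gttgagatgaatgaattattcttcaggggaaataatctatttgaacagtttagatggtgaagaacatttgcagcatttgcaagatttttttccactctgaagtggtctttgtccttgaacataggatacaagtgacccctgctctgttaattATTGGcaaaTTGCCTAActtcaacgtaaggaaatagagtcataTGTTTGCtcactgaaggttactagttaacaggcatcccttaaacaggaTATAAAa
Afm: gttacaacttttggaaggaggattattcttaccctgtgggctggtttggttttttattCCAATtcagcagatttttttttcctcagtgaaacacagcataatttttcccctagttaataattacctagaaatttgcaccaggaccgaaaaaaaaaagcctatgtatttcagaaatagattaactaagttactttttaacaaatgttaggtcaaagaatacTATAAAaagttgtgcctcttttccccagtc
Gc: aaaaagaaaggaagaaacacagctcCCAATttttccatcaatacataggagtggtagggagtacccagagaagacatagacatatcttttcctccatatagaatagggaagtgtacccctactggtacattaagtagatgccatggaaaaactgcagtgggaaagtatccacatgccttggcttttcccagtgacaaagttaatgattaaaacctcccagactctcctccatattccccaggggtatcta

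The open regions of the table covered all 250 printed bases of *Alb* and 194 of those of *Gc*, and 0 of those of *Afp* and of *Afm*. Motifs were searched on both strands of the RefSeq windows, which hold 50 more bases downstream of the start, and no matches of different motifs shared a base. Positions count the RefSeq start as 0, which for *Alb* lies 27 bases upstream of the start site behind the authors' distances. TGTTTGC, a FOXA motif held by 5.07% of the 32851 windows of the genome, was present in *Alb* with its first base at −128 and in *Afp* at −55. TTNNGCAA, a C/EBP motif held by 10.8% of windows, was present in *Alb* at −94 and in *Afp* at −89. CCAAT, the NF-Y motif, was in all 4 windows and in 37.4% of windows at large, and TATAAA was in *Afp* and *Afm* and in 13.6% of windows. TGTTTAC, the other FOXA motif searched (3.65% of windows), and CAAAGTCC, an HNF4 motif (1.42% of windows), were in none of the 4. The windows were poor in G and C, at 40% in *Alb* and *Afp*, 33% in *Afm* and 40.3% in *Gc*, whereas the median window held 52.7%. *Alb*, with an open promoter, and *Afp*, with none, shared 3 of the 4 motifs that any of the windows held, CCAAT among them. *Gc*, also with an open promoter, held only CCAAT.

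**Figure D1:**
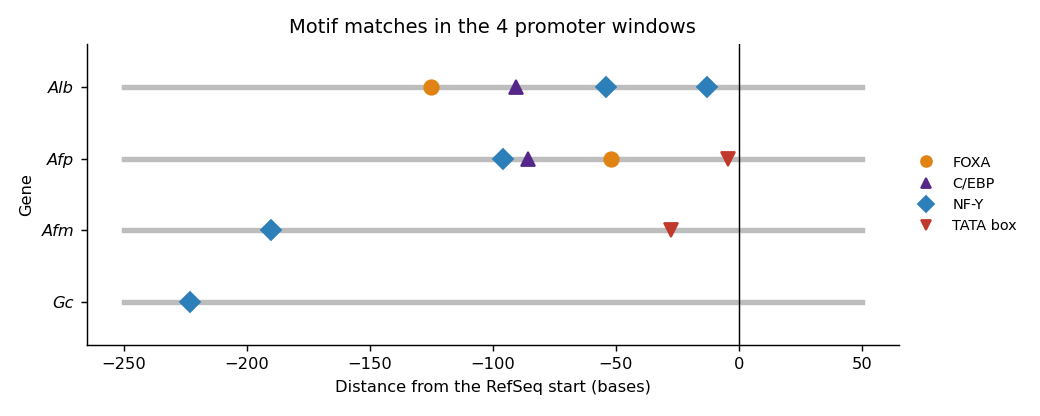
Motif matches in the RefSeq promoter windows of the 4 genes, by distance in bases from the RefSeq start (x axis, from 250 bases upstream to 50 downstream), 1 row per gene and 1 symbol per factor. An NF-Y match is present in every row, and a FOXA and a C/EBP match are present in *Alb* and *Afp*.

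The authors scaled their counts to library totals of 52826202 reads for FF and 58038305 for HKO, of which 31.7% and 22.3% lay on regions, and the median region held 85 and 81 counts. On that scale, RPM (the count plus 1 read, scaled to a common library size), the median log2 ratio of HKO over FF was −0.38 over all regions and −0.56 over the 14387 promoter regions, those centred within 1 kb of a transcription start site (TSS). A ratio of 0 therefore stands above most regions, and ratios are also given centred, that is after subtraction of the median of all regions. The labelled tissue was checked on hepatocyte markers outside the family, whose promoters held an open region for all 8 (median log2 ratio −0.65). The promoters of 7 of 8 endothelial markers held one. All 7 had log2 ratios above 0 (median 1.60), on 11 to 48 counts in FF and 28 to 89 in HKO. Of all promoter regions 16.1% lay above 0, but 65.3% did in the weakest of 10 equal classes of mean signal. Over all their regions, the 8 endothelial markers summed to 1736 counts in FF and 2399 in HKO. Summed, *Stab2* alone went the other way, with 661 counts in FF and 448 in HKO against a promoter log2 ratio of 1.78. Macrophage, stellate cell and cholangiocyte markers had a promoter region for 2, 3 and 5 of 8 genes, with promoter medians of 1.29, 0.076 and −0.19, and lymphocyte markers for 0 of 8. Over all their regions the macrophage markers summed to 966 counts in FF and 714 in HKO, the stellate cell markers to 756 and 243, and the cholangiocyte markers to 4019 and 3386. The macrophage and stellate cell sums went against the promoter medians of their lists. *Marco*, a scavenger receptor gene, held 463 and 35 of the macrophage counts, and *Reln* held 690 and 132 of the stellate cell counts. The lymphocyte markers summed to 842 and 446, of which *Cd4* held 786 and 366. *Cd68* and *Vsig4* of the macrophage list, *Lrat*, *Des*, *Pdgfrb* and *Dcn* of the stellate list, and *Krt7*, *Krt19* and *Cftr* of the cholangiocyte list, and all lymphocyte markers but *Cd4* and *Cd8a*, had 0 regions. The part of such cells in the results below was not tested.

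The family as a whole was somewhat lower in HKO on the authors' scale with a median close to that of all regions. Its 30 regions held 10452 counts in FF and 9023 in HKO (log2 ratio −0.35, 95% Clopper-Pearson interval −0.39 to −0.31, for counting error only). The median over the regions was −0.33, beside −0.38 for all regions, and single regions ranged from −1.25 to 1.75. Of the 30 regions 23 lay below 0, or 76.7%, against 64.8% of all regions, and 7 lay above. At least 2-fold lower were 3 regions, or 10%, against 18.3% of all regions, and at least 2-fold higher were also 3, against 13.2%. After centring, 3 regions passed 2-fold in the higher direction and 0 in the lower, whereas 20% of all regions were higher and 7.89% lower. By an exact binomial test of the counts of the libraries, adjusted over all 69549 regions with a threshold of 0.05, 14 of the 30 were lower in HKO (46.7%, against 47.7% of all regions) and 4 were higher (13.3%, against 20.3%). The shares past 2-fold and past the test were thus near or below those of all regions, and the share below 0 was above that of all regions. Strong regions had lower ratios in this table and 23 of the 30 lay in its upper 50% by signal. Beside regions of the same kind (promoter or not) and of the same one of 10 equal signal classes, 20 of the 30 lay above the median, 14 of them in *Gc*. Of the 14 lower calls 6 were kept after centring and 3 when the strongest 10% of promoters were set to 0. The 4 higher calls were kept under both, which was fixed in advance, since both centrings raise every ratio. Of these 4, 2 lay in regions with a peak called only in HKO.

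**Figure D2:**
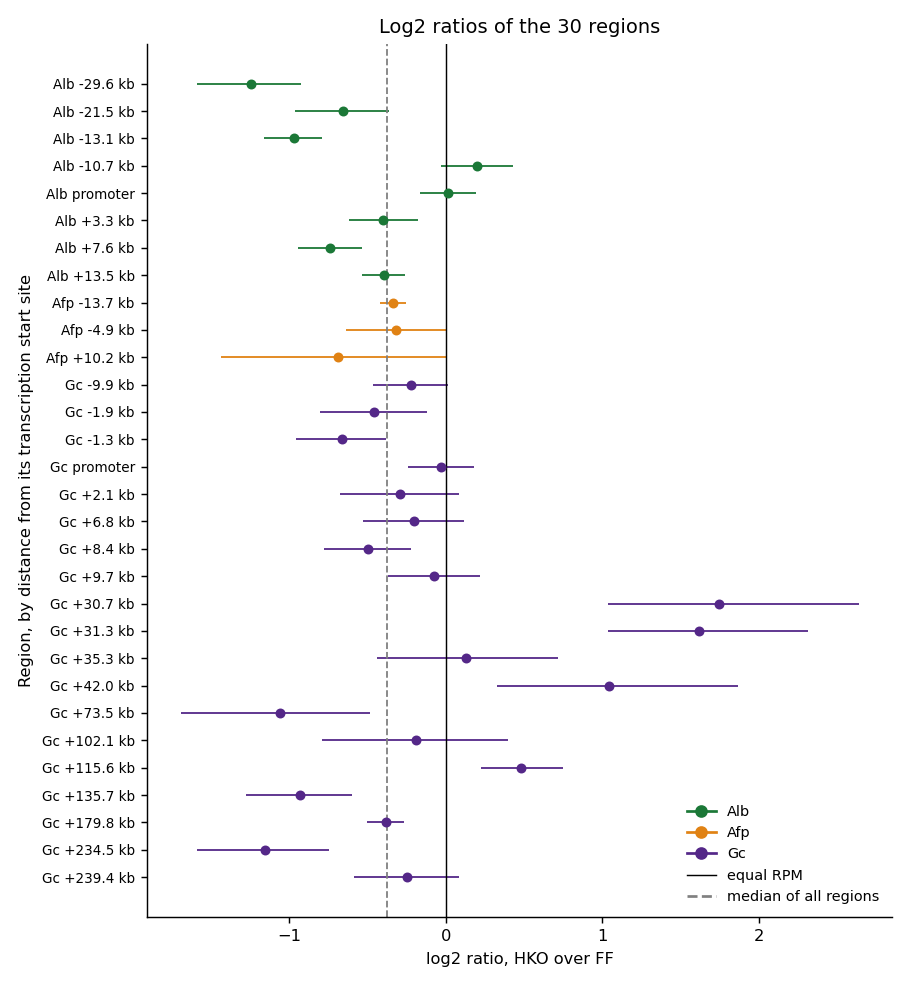
Log2 ratio of HKO over FF for each of the 30 regions (x axis), ordered by gene and by distance from the TSS (y axis), with 95% Clopper-Pearson intervals for counting error. The solid line marks equal RPM and the dashed line the median of all regions, −0.38. The *Alb* and *Gc* promoters lie near 0, most other regions lie to the left of it, and the highest ratios belong to *Gc* between 30.7 and 42 kb downstream of its start.

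*Alb* (ENSMUSG00000029368) encodes albumin, the main protein of plasma. Its promoter held nearly equal RPM in both libraries, while the rest of the gene and most of its upstream regions were lower in HKO on the authors' scale. The promoter region, at chr5:90460597-90461050, runs from intergenic sequence into intron 1 and contains every printed base of the *Alb* window. It held 480 counts in FF and 533 in HKO, or 20.1 and 20.3 RPM per kb of region. In each pair of counts below, the first is that of FF and the second that of HKO. The log2 ratio was 0.015 (95% interval −0.17 to 0.20, exact binomial test, adjusted p = 0.90), and 0.39 after centring, where it was past the threshold (adjusted p = 5.2e-05, exact binomial test). Among all promoter regions this ratio lay at the 84.3th percentile. Over 10 equal classes of mean signal, the median log2 ratio of promoters went from 0.60 in the weakest class to −0.64 in the strongest, so the promoter was also set beside its own class. Class 9 held 2907 promoters with a median of −0.63, and *Alb* stood at the 95.7th percentile among them.

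The 4 upstream regions of *Alb* did not move as 1 block. The region 29.6 kb upstream, inside the long noncoding RNA gene *Gm35999*, held 245 and 113 counts (log2 ratio −1.25, 95% interval −1.59 to −0.92, exact binomial test, adjusted p = 2.1e-14), the lowest of the 30. The region 21.5 kb upstream held 229 and 159 counts (log2 ratio −0.66), and the one 13.1 kb upstream held 658 and 368 (log2 ratio −0.97). All 3 were lower by the exact binomial test, and the call at 21.5 kb was lost after centring (adjusted p = 0.091). The region 10.7 kb upstream, at chr5:90449951-90450393, went the other way, with 278 counts in FF and 351 in HKO. Its log2 ratio was 0.20 (95% interval −0.03 to 0.43, exact binomial test, adjusted p = 0.12), and 0.58 after centring, where it was past the threshold (adjusted p = 2.9e-06, exact binomial test). The promoter and this region were the only ones of the 8 *Alb* regions above 0, and whether reads of the Alb-Cre transgene add to them was not tested. The 2 regions at 13.1 and 10.7 kb are close neighbours on the chromosome, yet their log2 ratios were −0.97 and 0.20, with intervals that do not overlap.

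Within the *Alb* gene, open chromatin was spread over the body, and each of its 3 regions there had a ratio below 0 on the authors' scale. The region at 3.3 kb downstream of the TSS, in intron 4, held 376 and 313 counts (log2 ratio −0.40). The region at 7.6 kb, centred in exon 8, held 486 and 320 (log2 ratio −0.74), and the strongest, at 13.5 kb in intron 12, held 980 and 818 (log2 ratio −0.40). All 3 were past the threshold of the exact binomial test, but after centring the regions in introns 4 and 12 came to −0.022 and −0.019 and were no longer past it (adjusted p = 0.89 and 0.84, exact binomial test). A peak was called at 3.3 kb only in HKO and at 7.6 kb only in FF. Per kb of region, these gene-body regions stood at 21.4, 25.6 and 24.96 RPM per kb in FF, beside 20.1 for the promoter. In the HKO library they stood at 16.2, 15.4 and 18.97 RPM per kb, beside 20.3 for the promoter, which was thus the lowest of the 4 in FF and the highest in HKO.

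Summed, the 8 *Alb* regions held 3732 and 2975 counts (log2 ratio −0.46, 95% interval −0.53 to −0.39), and the 7 outside the promoter 3252 and 2442 (log2 ratio −0.55, 95% interval −0.63 to −0.47). The ratio of the *Alb* promoter was higher than that of its other regions by 0.56 on the log2 scale (95% interval 0.37 to 0.76), a difference that does not depend on the scaling of the libraries. The split into promoter and other regions was made with these values known, and the interval covers counting error only.

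**Figure D3:**
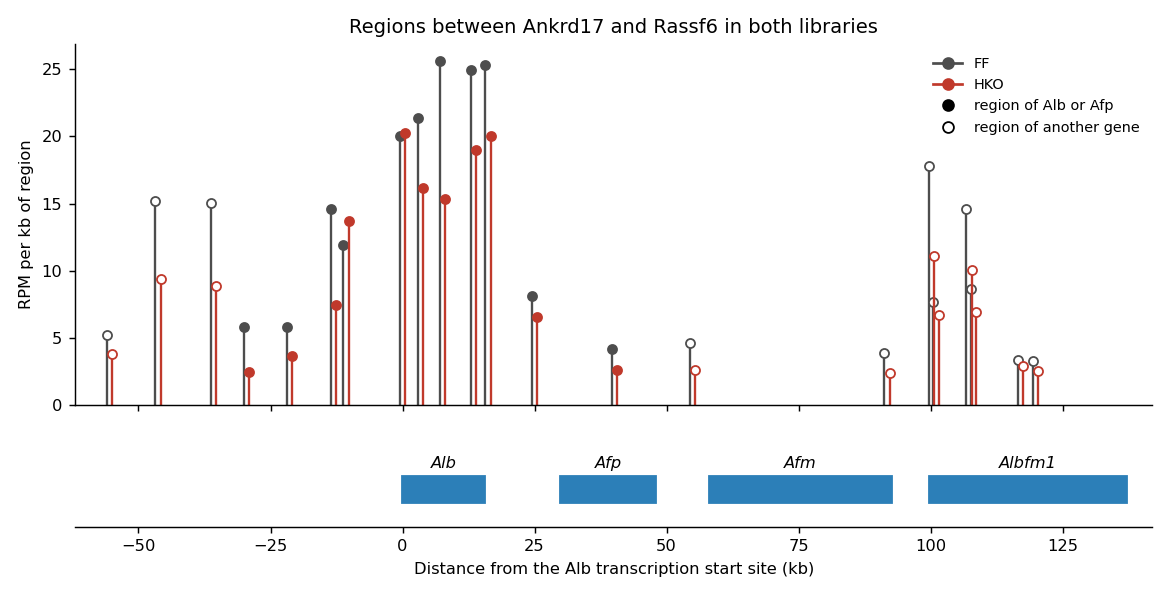
RPM per kb of region (y axis) for the 22 regions between *Ankrd17* and *Rassf6*, by distance in kb from the *Alb* TSS (x axis), with 1 stem per library, drawn slightly apart, and gene bodies as boxes below. Filled points are the regions of *Alb* and *Afp* and open points those of other genes. Open chromatin is densest over *Alb*, and the stems of the HKO library are the taller ones only at the *Alb* promoter and 10.7 kb upstream of it.

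*Afp* (ENSMUSG00000054932) encodes alpha-fetoprotein, the fetal counterpart of albumin. No region lay at its start in either library, and the nearest was 4681 bp from it. The table assigns 3 regions to *Afp*, and the strongest of the whole family is 1 of them only by the position of its centre. That region, at chr5:90476133-90478016, is 1884 bp long, begins in the last intron of *Alb* and runs past the 3′ end of that gene, 13.7 kb upstream of *Afp*. It held 2517 counts in FF and 2187 in HKO, more than 99.7% of all regions by mean RPM. Its log2 ratio was −0.34 (95% interval −0.42 to −0.26, exact binomial test, adjusted p = 6.8e-15), and 0.039 after centring. The call was lost after centring (adjusted p = 0.43, exact binomial test). The median region of the table is 389 bp long.

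The other 2 *Afp* regions were weaker. The one 4.9 kb upstream of the TSS, in the interval between *Alb* and *Afp*, held 178 and 157 counts (log2 ratio −0.32, 95% interval −0.64 to 0.00089, exact binomial test, adjusted p = 0.069). The one in intron 7, 10.2 kb downstream of the TSS, held 43 and 29 counts (log2 ratio −0.69, 95% interval −1.44 to 0.0088, exact binomial test, adjusted p = 0.064), and a peak was called there only in FF. At these depths neither was separated from equal RPM. The 3 regions summed to 2738 and 2373 counts (log2 ratio −0.34, 95% interval −0.42 to −0.26), nearly all of it from the region at the 3′ end of *Alb*. Neither library held a region at the start of *Afp*, the gene that is silenced after birth.

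*Afm* encodes afamin, which binds vitamin E and carries Wnt proteins. The table names no region for it. The region nearest to its RefSeq start lay 3054 bp away and held 55 and 33 counts. A single region, with 67 and 45 counts, overlapped the gene body, and the table assigns it to another gene. Regions covered 0.957% of the *Afm* body and 1.099% of the *Afp* body, beside 13.3% of *Alb* and 6.37% of *Gc*. Per kb of gene, region reads came to 2.79 RPM in FF and 2.17 in HKO for *Alb* without the region at its 3′ end, of which 470 bp lie inside the gene, and to 5.83 and 4.57 with all reads of that region. They came to 0.555 and 0.543 for *Gc*, 0.046 and 0.028 for *Afp*, and 0.037 and 0.023 for *Afm*. The order *Alb*, *Gc*, *Afp*, *Afm* was the same in both libraries.

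*Gc* (ENSMUSG00000035540), whose product carries vitamin D and its metabolites and binds actin released from damaged cells, is transcribed from the minus strand. Its promoter resembled that of *Alb*. The region at chr5:89457586-89458092 is centred in exon 1 and held 355 counts in FF and 382 in HKO, or 13.3 and 13.02 RPM per kb. The log2 ratio was −0.030 (95% interval −0.24 to 0.18, exact binomial test, adjusted p = 0.83), and 0.35 after centring, where it was past the threshold (adjusted p = 0.0026, exact binomial test). It stood at the 94.7th percentile of the 2907 promoters in signal class 9, which also holds *Alb*. The ratios of the *Alb* and *Gc* promoters differed by 0.045 on the log2 scale (95% interval −0.24 to 0.33), and differences within that interval cannot be seen at this depth. Against its own 18 other regions the *Gc* promoter was higher by 0.25 (95% interval 0.022 to 0.47), and this split too was made with the values known.

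Around the *Gc* promoter the ratios changed within short distances. The 2 regions just upstream, at 1.3 and 1.9 kb, held 246 and 170 counts (log2 ratio −0.67) and 164 and 131 (log2 ratio −0.46), and both were lower by the exact binomial test on the authors' scale. After centring they came to −0.29 and −0.080, and both calls were lost (adjusted p = 0.069 and 0.71, exact binomial test). The region 9.9 kb upstream held 302 and 284 counts (log2 ratio −0.22). Of the 4 regions in intron 1, between 2.1 and 9.7 kb downstream of the TSS, the log2 ratios ran from −0.50 to −0.076, and the one at 8.4 kb was lower by the test, a call lost after centring (adjusted p = 0.47, exact binomial test).

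The highest ratios of the family lay at the other end of *Gc*. A pair of regions in intron 10, 30.7 and 31.3 kb downstream of the TSS, held 18 and 28 counts in FF and 69 and 97 in HKO. Their log2 ratios were 1.75 (95% interval 1.04 to 2.64) and 1.62 (95% interval 1.04 to 2.32). A peak was called in them only in HKO, so they entered the table through the library in which they are high, and their ratios are given as a description. Of all 14928 regions called only in HKO, 94.6% lay above 0, with a median of 1.06. In intron 11, at 35.3 kb, a region held 48 and 58 counts (log2 ratio 0.13, adjusted p = 0.74 by the exact binomial test). Just past the end of the gene, at 42 kb, a region held 22 and 51 counts (log2 ratio 1.04, adjusted p = 0.0057 by the exact binomial test). All 4 lay above 0, and all 4 were weak regions, at 1.31 to 4.64 RPM per kb in FF and 4.02 to 5.08 in HKO. The 3 regions at least 2-fold higher lay in signal classes 3 and 4, where the regions outside promoters had medians of 0.0086 and −0.034, above the −0.68 of class 10.

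Downstream of *Gc* the strongest of its regions, 179.8 kb from the TSS and outside any annotated gene, held 1246 and 1049 counts (log2 ratio −0.38, 95% interval −0.50 to −0.26), and −0.0064 after centring. The lowest ratio belonged to the region 234.5 kb downstream, which runs from intron 20 into intron 21 of *Slc4a4*, a bicarbonate transporter gene, with 147 and 72 counts (log2 ratio −1.16, 95% interval −1.59 to −0.75, exact binomial test, adjusted p = 3.5e-08). The region at 73.5 kb held 71 and 37 counts (log2 ratio −1.06), and the one at 135.7 kb held 200 and 115 (log2 ratio −0.93). The region at 115.6 kb went the other way, with 199 and 306 counts (log2 ratio 0.48, 95% interval 0.22 to 0.75, exact binomial test, adjusted p = 0.00048). Those at 102.1 and 239.4 kb, with log2 ratios of −0.19 and −0.25, were not past the threshold. The assignment of these distant regions to *Gc* rests on the closest TSS alone. Summed, the 19 regions held 3982 and 3675 counts (log2 ratio −0.25, 95% interval −0.32 to −0.19). The 7 in the gene body came to −0.031, the 3 upstream to −0.42 and the 8 downstream to −0.33.

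**Figure D4:**
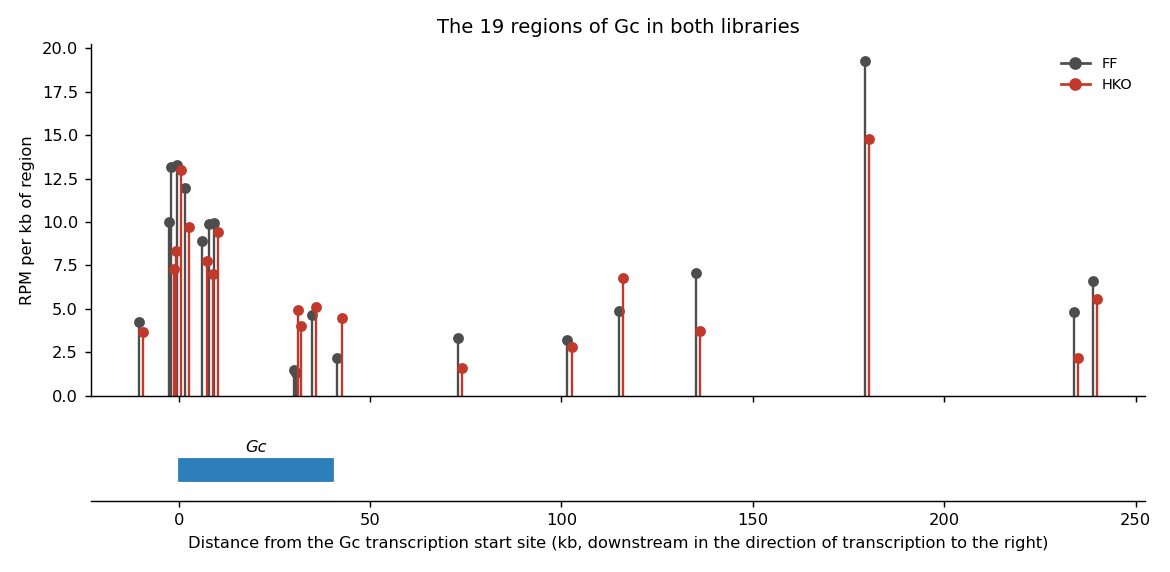
RPM per kb of region (y axis) for the 19 regions of *Gc*, by distance in kb from its TSS in the direction of transcription (x axis), with 1 stem per library, drawn slightly apart, and the gene body as a box below. The promoter stems are of nearly equal height, at 13.3 and 13.02 RPM per kb, and the stems of the HKO library are taller in the last part of the gene, just past its end and at 115.6 kb.

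Between the genes, the summed regions of *Alb* had the lowest ratio, and the margin over *Afp* depends on the assignment of 1 region. The ratio of *Alb* was lower than that of *Gc* by 0.21 on the log2 scale (−0.21, 95% interval −0.31 to −0.12), and lower than that of *Afp* by 0.12 (−0.12, 95% interval −0.23 to −0.014). The second difference rests on the region at the 3′ end of *Alb*. Counted with *Alb*, that region leaves *Afp* with 221 and 186 counts and the difference at −0.027 (95% interval −0.32 to 0.27). *Afp* and *Gc* differed by −0.091 (95% interval −0.19 to 0.013), which does not separate them. These 3 comparisons compare genes within each library and do not depend on the scaling, and all 3 are small beside the spread among the regions of 1 gene. By summed RPM, *Gc* ranked 167th of the 14583 genes with a symbol in FF and 80th in HKO, *Alb* 206th and 159th, and *Afp* 531st and 307th. These ranks also rest on the assignment of the region at the 3′ end of *Alb*. Counted with *Alb*, it brings that gene to 6249 and 5162 counts, above the 3982 and 3675 of *Gc*. The ranks and the genes nearest to *Alb* were not recomputed for that assignment. The genes whose summed RPM in the 2 libraries lay nearest to *Alb* were *Ywhaz*, *Ing3*, *Fah*, *Nudt7* and *Mpc2*, at Euclidean distances of 0.011 to 0.068 in log2 RPM over the 2 libraries.

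The regions around *Alb*, *Afp* and *Afm* mostly had ratios below 0. Of the 22 regions between *Ankrd17* and *Rassf6*, the genes that flank *Alb*, *Afp* and *Afm*, 20 had log2 ratios below 0 (median −0.50), where 64.8% of all regions did (median −0.38). The 11 of them assigned to no member all lay below 0, from −0.86 to −0.18, and 3 of them above 0 after centring. They include those of *Albfm1*, a further gene of the albumin superfamily named here after its values were seen. Its promoter region at the start held 805 and 552 counts (log2 ratio −0.68). Another region, centred 789 bp downstream and so also within 1 kb, held 137 and 131 (log2 ratio −0.20, exact binomial test, adjusted p = 0.32). Among the 8 neighbouring genes on either side of the members, 5 had a promoter region. Their log2 ratios ran from −0.69 at *Slc4a4* to −0.19 at *Cox18* (median −0.46), and 4 of the 5 were lower by the exact binomial test. Of all promoter regions 71.7% were lower by this test, with a median of −0.56, so these neighbours lay near the bulk of promoters.

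Promoters of factors that regulate the family are given as a description. Of 20 such genes 19 had a promoter region, all 19 with a log2 ratio below 0 (median −0.73), beside 83.9% of all promoter regions (median −0.56). By the exact binomial test 15 were lower and 0 higher, where 71.7% of all promoter regions were lower and 7.68% higher, so the count was near the background. The lowest were *Foxa2* (1650 and 792 counts, log2 ratio −1.19), *Gata4* (615 and 300, −1.17) and *Foxa1* (1432 and 703, −1.16), which encode pioneer and lineage factors of liver. *Hnf4a*, which encodes a nuclear receptor of hepatocytes, held 418 and 239 counts (log2 ratio −0.94). The highest was *Zhx2* (448 and 489 counts, log2 ratio −0.0097), a repressor of *Afp* after birth. *Zbtb20*, the other such repressor in the list, held 140 and 112 (log2 ratio −0.46).

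Of 15 other plasma proteins made by hepatocytes, 14 had a promoter region, all 14 were lower by the exact binomial test (71.7% of all promoter regions were), and the median log2 ratio was −0.83. They ran from −1.08 at *Ttr*, which carries thyroid hormone (161 and 83 counts), to −0.26 at *Kng1*, the kininogen gene (655 and 602 counts). The *Alb* and *Gc* promoters, at 0.015 and −0.030, thus lay above each of these 14. The lists were chosen with earlier results known, so this is a description of these libraries. The direction depends on the scaling, since 2 of the 14 plasma protein promoters and 4 of the 19 regulator promoters lay above 0 after centring on all regions, and 6 and 7 when the strongest 10% of promoters were set to 0.

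**Figure D5:**
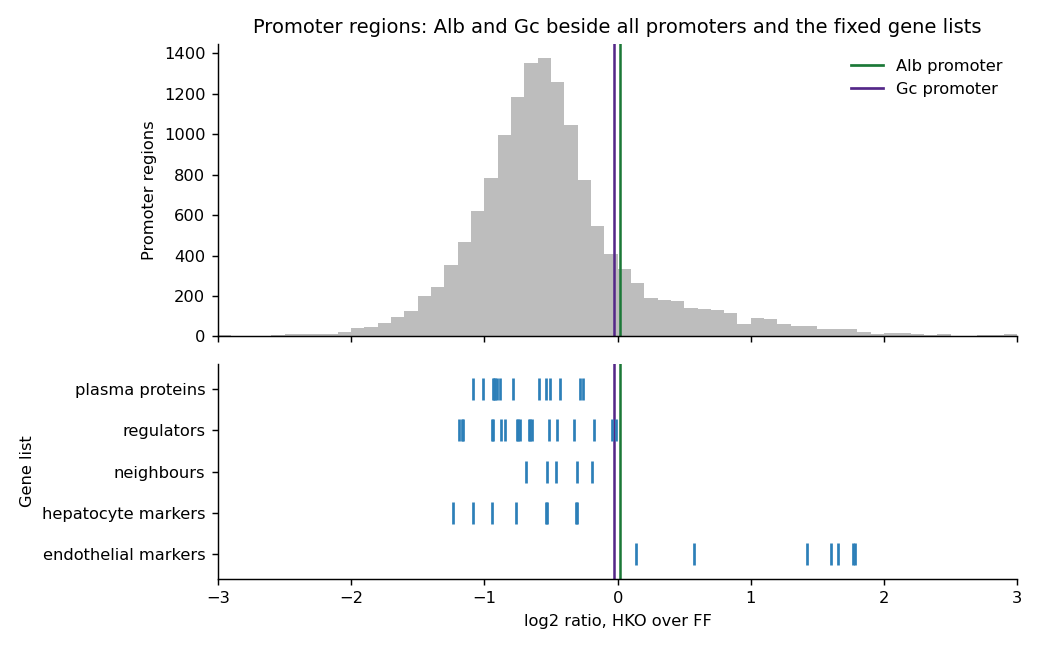
Number of promoter regions (upper y axis) by log2 ratio of HKO over FF (x axis, values beyond 3 drawn at the edge), with lines at the *Alb* and *Gc* promoters, and below it 1 tick per gene for the promoters of 5 gene lists. Both lines lie to the right of the peak of the histogram and of every plasma protein tick, and to the left of the endothelial marker ticks.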

How the data were processed

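ATAC-seq was analysed for 1 *Mettl3* flox/flox (FF) and 1 *Mettl3*-HKO (HKO) liver library, grouped by the labels. The authors trimmed adaptors with skewer, mapped the trimmed pairs with BWA, dropped mitochondrial and improperly paired reads, and called peaks with MACS2, duplicates kept. A shift of read ends for Tn5 is not given in the sources used here. The authors deposited raw counts per region, RPM values (count plus 1 over the library total), fold enrichment as a ratio to the genome average and log2 ratios, their own comparison, which were not used. Library totals were recovered from the RPM values. Of 74821 rows, 5272 repeated a region and were left out, and starts were converted to count from 1.

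Log2 ratios were recomputed from the counts with 1 read added. The exact conditional binomial test set each pair of counts against the ratio of library totals (two-sided). P-values were adjusted after Benjamini and Hochberg across the 69549 regions, and 0.05 was the threshold. The test concerns the libraries and not the genotypes, and it takes reads as independent, which duplicate reads are not. The authors kept duplicates for peak calling, and the paper does not state whether the counts hold them. The 95% intervals turn Clopper-Pearson limits for shares of counts into log2 ratios. Summed counts of 2 genes were compared by the ratio of their ratios, for 3 pairs, since *Afm* had no region. On simulated counts for 69549 regions with 200 changed 2-fold, the test called 87% of these and 8 unchanged ones. The simulation held counting error only and no shift between the libraries, so it does not give the error rate in the real counts. A call is a region past this test, and counts past 2-fold are given apart from it.

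Gene positions and promoter windows came from RefSeq (GRCm38.p6), in which all 4 members matched by symbol. Described one by one were the promoter regions and, per gene, the strongest, highest and lowest regions, beside the genes nearest to *Alb* in summed RPM, and the other regions were named after their values were seen. One planned motif and the value of one regulator are not reported here. The members, lists and motifs were chosen with earlier results of these data known.  Analyses ran in Python 3.11.15 with scipy 1.17.1, pandas 2.3.3 and numpy 2.4.6, and figures were drawn with matplotlib 3.10.9.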

Additional observations from a re-analysis of the deposited data

How the results depend on the processing

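Each group is 1 pooled library, so no sample could be left out. No paired analysis was possible because the groups share only 1 replicate number, which names a pooled library. Adding 0.5 or 10 reads turned no direction among the values tried. The scaling decides the signs of most summed values, and it turned 9 of the 30 single regions when centred on all regions and 14 when centred on strong promoters. Centred on the median of all regions, the summed log2 ratio of *Alb* was −0.085, and those of *Afp* and *Gc* turned to 0.035 and 0.13, the family median to 0.050 and the *Gc* promoter to 0.35, past the threshold as was the *Alb* promoter at 0.39. Centred on the strongest 10% of promoter regions, these values were 0.18, 0.30, 0.39, 0.32, 0.62 and 0.66. Under both centrings 0 regions were at least 2-fold lower.

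Of the single regions, centring on all regions turned the 2 *Afp* regions upstream of its start to 0.039 and 0.062, and 6 *Gc* regions to 0.13, 0.19, 0.30, 0.17, 0.085 and 0.15. Centring on strong promoters turned these 8 to 0.31 and 0.33, and to 0.40, 0.45, 0.57, 0.44, 0.35 and 0.42. It also turned 2 *Alb* gene-body regions, to 0.25 and 0.25, and 3 *Gc* regions, to 0.26, 0.15 and 0.19. By the exact binomial test under this centring, 4 of the regions called lower became calls in the higher direction, namely the one at the 3′ end of *Alb*, the 2 in the *Alb* body and the *Gc* region at 179.8 kb. Centred on strong promoters, 6 of 14 plasma protein and 7 of 19 regulator promoters lay above 0. The cause of the shift between the libraries was not tested.

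Among the other choices, regions with a peak in both libraries gave −0.32 for *Gc*, a promoter window of 2000 bp gave −0.30 for the *Gc* promoter since it takes in the 2 upstream regions, and leaving out the promoter gave −0.55 for *Alb*. With the upper 50% of regions by signal the family median was −0.38, and 0 regions passed 2-fold in the higher direction, since the 3 are weak. A 1.5-fold threshold gave 9 lower regions. Chosen after seeing the data, regions within 50 kb of the *Gc* TSS gave −0.14, and counting the region at the 3′ end of *Alb* with *Alb* gave −0.41 for *Alb* and −0.38 for *Afp*, and −0.027 for the difference between them.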

Other observations

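In 3 of the 8 family regions with a peak called in only 1 library, the counts went against the peak call. The *Alb* region in intron 4 was called only in HKO, although its RPM was 7.14 in FF and 5.41 in HKO. The *Gc* regions at 35.3 and 42 kb downstream of the TSS were called only in FF, although their RPM was lower there, at 0.928 against 1.02 and 0.435 against 0.896. Over the whole table, 3.01% of the 11701 regions called only in FF lay above 0, and 5.42% of the 14928 called only in HKO lay below 0. How the peak columns were set for merged regions was not tested.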
